A study of Mus musculus with 12 samples.

Results

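Core autophagy and mitophagy genes were followed under 3 culture conditions in Min6, an insulin-producing line from a mouse insulinoma that is used as a model of the pancreatic beta cell. Of 38 listed genes, 37 had an array row annotated with that symbol alone and were measured, among 19938 genes with such a row; Optn was not analysed here. Where a gene had several rows, the row with the highest mean over the 12 arrays was used. Rows may also take signal from near-identical copies of a gene elsewhere in the genome, which was not tested. The return condition (RC, 4 arrays) had 5 days in serum-containing medium, then 5 days without serum at 5% oxygen, and then 5 final days back in serum at 20% oxygen. The defined condition (DC, 4 arrays) had the same first 5 days in serum and was then kept serum-free at 5% oxygen for the last 10 days. The serum-free medium held apo-transferrin at 100 µg/mL, putrescine at 100 µM, progesterone at 20 nM and selenite at 30 nM, and the serum medium held 2-mercaptoethanol. The classic condition (CC, 4 arrays) stayed in 15% serum at 20% oxygen throughout. The labels name the same line in every condition, and serum, oxygen and the supplements changed together, so their effects cannot be told apart. RC also had fewer serum-free days than DC, and the middle point of the RC schedule, before serum was given back, was not analysed here. The replicates came from a single experiment, so p-values cover only the spread among these cultures, which may be technical.

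Macroautophagy encloses cytoplasm or an organelle in a double membrane, the autophagosome, and delivers it to the lysosome. A kinase complex around ULK1 starts the process, a lipid kinase complex around Beclin 1 marks the site with phosphatidylinositol 3-phosphate, vesicles and lipid transfer proteins supply membrane, and a ubiquitin-like conjugation system attaches proteins of the ATG8 family to the growing membrane, where they bind cargo receptors. Mitophagy is the same route used for mitochondria, through the kinase PINK1 or through receptors that sit in the outer mitochondrial membrane. In beta cells the pathway is known for clearing damaged mitochondria. In many other cells starvation and low oxygen are known triggers, much of it through changes in proteins already present and not in mRNA.

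Each array gave a log2 expression value for each of 35556 rows, with a median of 7.99 over all values, and 35 of the 37 members had a mean above it. The value also depends on the probe, so the results compare arrays and not genes, and the marker levels given next are only a rough check of the labelled cell type. The 10 beta cell genes checked averaged 7.80 (Slc2a2) to 13.8 (Iapp), the hormone genes of other islet cells 12.3 (Gcg), 11.5 (Sst), 9.02 (Ppy) and 8.74 (Ghrl), the 5 exocrine and ductal genes 6.96 to 8.19, and the 6 fibroblast, endothelial and immune genes 6.37 to 9.81. Of these 25 markers, 3 passed (adjusted p under 0.05) both between DC and CC and between RC and DC. Of all rows, 6.64% and 2.63% passed in these comparisons. Sst was lower in DC than in CC (-1.26, limma adjusted p = 0.0066) and higher in RC than in DC (1.70, adjusted p = 0.00195). The beta cell genes Nkx2-2 and Slc30a8 were higher in DC than in CC (0.29 and 0.31) and lower in RC than in DC (-0.34 and -0.45), with adjusted p of 0.0186, 0.0404, 0.0174 and 0.00916. Their part in the autophagy results was not tested, and in bulk RNA fewer cells of a type and less RNA per cell cannot be told apart. Array RC 3 had a mean correlation of 0.976 to its own group, against 0.989 to 0.990 for the remaining RC arrays, and the CC arrays fell into the pairs CC 1 with CC 2 and CC 3 with CC 4 (correlations of 0.996 and 0.998 within pairs and at most 0.994 across). These features reached the autophagy genes. The median of the 37 members was 9.53 and 9.52 on CC 1 and CC 2, against 9.29 and 9.31 on CC 3 and CC 4, and in 29 members both arrays of the first pair lay above both of the second, while no member had the reverse. How many of all rows did the same was not counted, so this is not shown to be particular to the members. The interquartile ranges of all rows were 2.73 and 2.75 on CC 1 and CC 2, against 2.58 and 2.57 on CC 3 and CC 4. The lowest member medians were those of RC 3 (9.24) and DC 4 (9.27), which had the narrowest interquartile ranges of all rows, 2.42 and 2.44. Once the group means were taken off, the level of 21 of 37 members followed the array's interquartile range with a correlation above 0.7 over the 12 arrays, which was true of 15.5% of all rows and 25.5% of rows above the median level. Atg3 and Tax1bp1 had the highest such correlations (0.96 and 0.94), and Atg101 and Calcoco1 were the members with a negative one (-0.18 and -0.31). The differences below were also fitted with this interquartile range as a covariate.

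**Figure D1:**
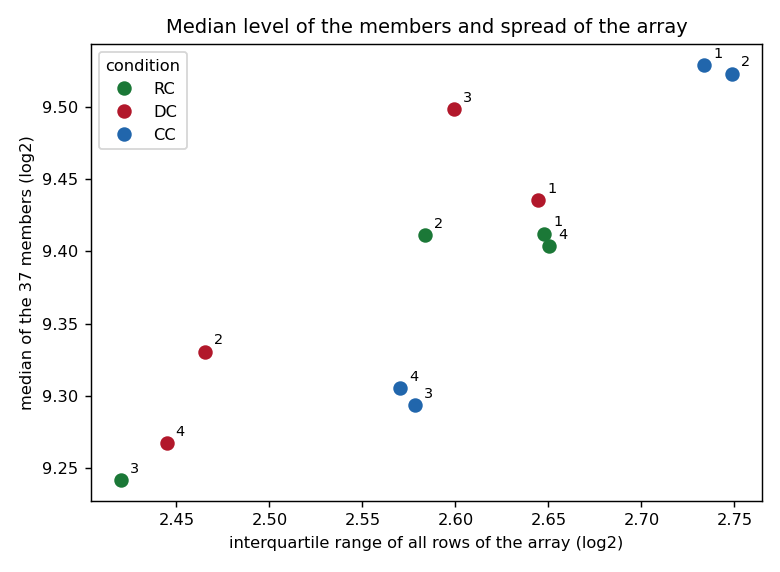
Median log2 value of the 37 members (vertical axis) against the interquartile range of all rows on the same array (horizontal axis, log2), with 1 point per array, numbered by replicate and coloured by condition. RC 3 lies lowest at 9.24 and CC 1 and CC 2 highest at 9.53 and 9.52.

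Few of the core genes differed between the conditions. Between DC and CC, 2 of 37 members passed (limma, adjusted p under 0.05 over all rows), the ATG8 gene Map1lc3a higher and the phosphoinositide-binding Wipi1 lower in DC. That is 5.41% of the members, against 6.64% of all rows (2.31% higher and 4.32% lower). Between RC and DC 2 members passed, Wipi1 higher and the kinase gene Ulk1 lower in RC, or 5.41% against 2.63% of all rows (1.45% higher and 1.18% lower). Between RC and CC the vesicle protein gene Atg9a passed, lower in RC, or 2.70% against 0.796% of all rows (0.121% higher and 0.675% lower). The last comparison shares its RC and CC arrays with the other comparisons, and RC against DC shares the DC arrays with DC against CC. A test for any difference among the 3 conditions (limma's moderated F) called 3 members, Wipi1, Ulk1 and Atg9a, against 5.75% of all rows. Fitted alone, rows above the median level passed in 14.6% (DC against CC), 5.94% (RC against DC) and 2.47% (RC against CC). In that fit 3 members passed between DC and CC and 2 between RC and DC, and Atg9a passed between RC and CC.

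The measured members had a median log2 difference of 0.01 for DC minus CC, -0.05 for RC minus DC and -0.04 for RC minus CC, where all rows had 0.04, -0.01 and 0.03. Rows above the median level, where 35 of the 37 members lay, had -0.019, 0.004 and -0.008. At an unadjusted p under 0.05 there were 8 members between DC and CC (21.6%, against 20.6% of all rows), 5 between RC and DC (13.5% against 11.8%) and 6 between RC and CC (16.2% against 9.06%). For most members that did not pass, the data bound the change. Between DC and CC the 95% interval lay within 0.5 either way on the log2 scale (1.41-fold) for 33 of 35 such members, the exceptions being Rb1cc1 and Atg3. It did so for 32 of 35 between RC and DC, without Uvrag, Atg3 and Gabarapl1, and for 34 of 36 between RC and CC, without Rb1cc1 and Gabarapl1. With the array's interquartile range as a covariate, the exceptions changed. For DC minus CC, Rb1cc1 (-0.21 to 0.34) and Atg3 (-0.10 to 0.22) then lay within the bound. Map1lc3b and Fundc1 (each 0.06 to 0.53) reached beyond it and did not pass. For RC minus DC, Uvrag, Atg3 and Gabarapl1 lay within it. For RC minus CC, Rb1cc1 lay within it, while Gabarapl1 and Map1lc3b reached 0.61 and 0.51.

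**Figure D2:**
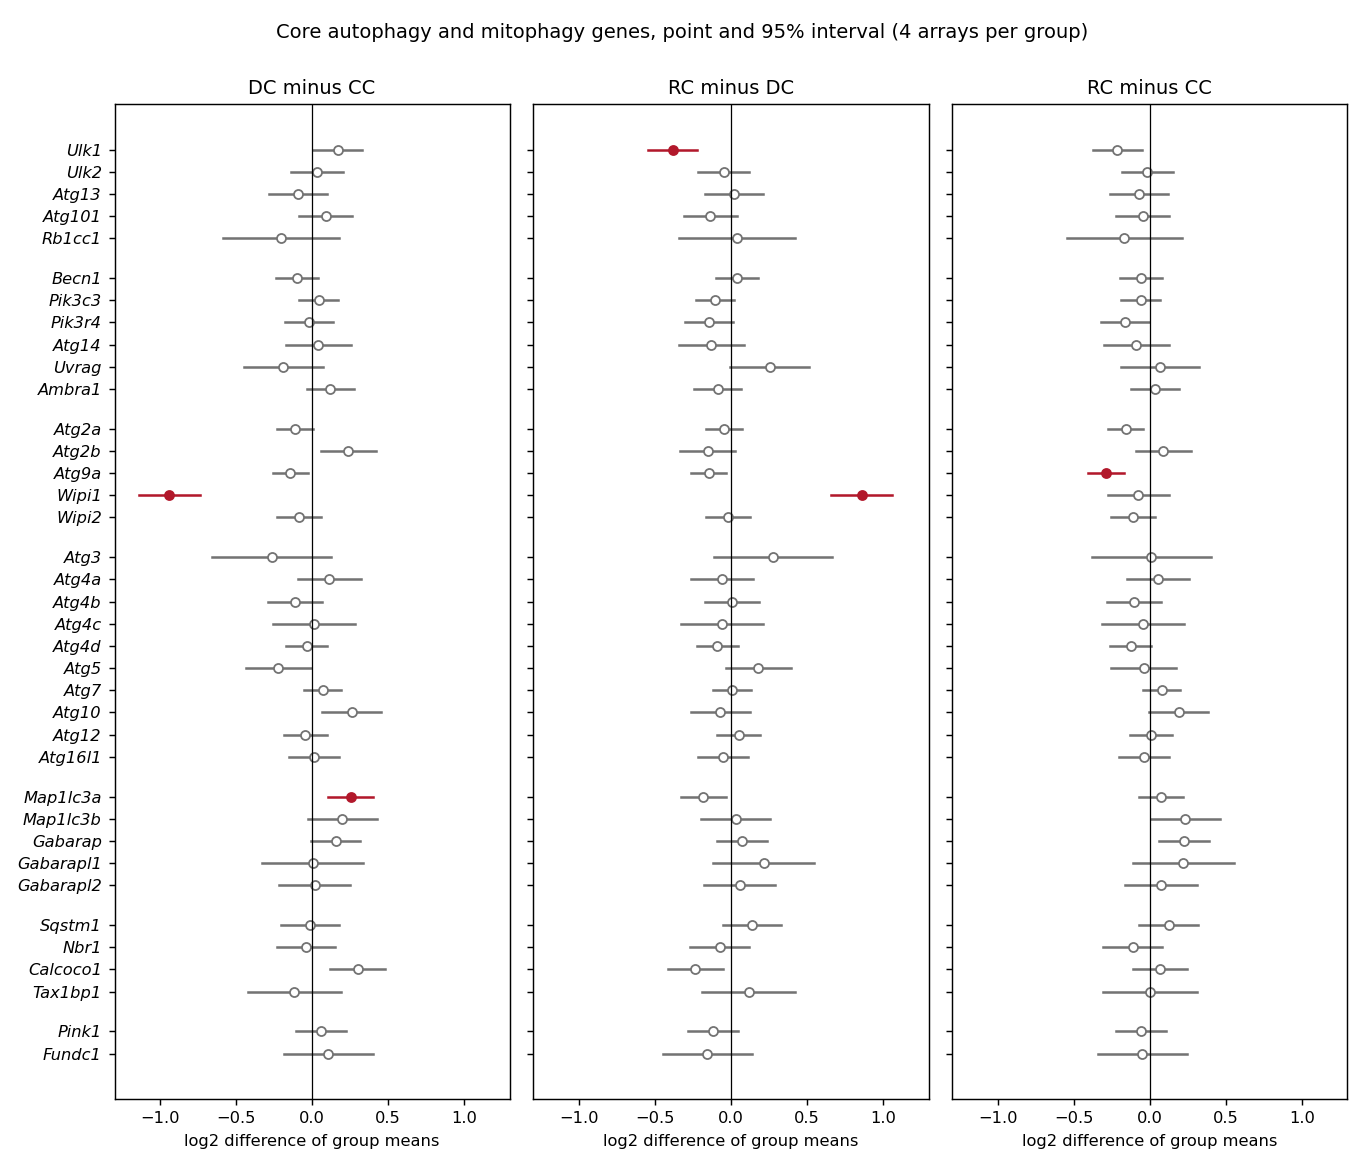
Log2 difference of the group means (point) with its 95% interval (line) for each of the 37 members, ordered by role from the start complex at the top to mitophagy at the bottom, in 3 panels for DC minus CC, RC minus DC and RC minus CC. Filled red points passed at an adjusted p under 0.05. Wipi1 lies at -0.94 and 0.86 in the first 2 panels, and Ulk1 comes next, at -0.38 for RC minus DC.

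The members supplying membrane and reading the lipid mark held the clearest change. WIPI1 binds phosphatidylinositol 3-phosphate on forming autophagosomes. Wipi1 (row 10392449) read 12.046, 11.968, 11.751 and 12.043 on the RC arrays, 11.320, 10.974, 11.145 and 10.924 on the DC arrays and 12.047, 12.092, 12.005 and 11.976 on the CC arrays. Every DC array lay below every RC and CC array, while RC and CC overlapped and RC 3 was the lowest of those 8. In DC Wipi1 fell by 0.94 on the log2 scale relative to CC (1.92-fold, with an SE of 0.09 over 4 arrays a group; limma adjusted p = 6.6e-05). RC exceeded DC by 0.86 ± 0.09 (1.82-fold; limma adjusted p = 0.00026). Between RC and CC the difference was -0.08, with a 95% interval of -0.28 to 0.12. Both calls held under all 24 alternatives tried, with values of -1.02 to -0.80 for DC minus CC and 0.79 to 0.97 for RC minus DC. The level of Wipi1 followed the array spread within groups (correlation 0.90), and with that spread as a covariate the differences were -0.80 and 0.82. The related Wipi2, which recruits the conjugation machinery to the same lipid, averaged 9.67 ± 0.10 in RC, 9.69 ± 0.07 in DC and 9.78 ± 0.08 in CC (SD, n = 4 each) and did not pass.

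ATG9A is a membrane protein that scrambles lipids and arrives on small vesicles that seed the autophagosome. Atg9a (row 10355763) read 9.93, 10.02, 10.00 and 10.12 in RC, 10.19, 10.14, 10.21 and 10.13 in DC and 10.32, 10.28, 10.32 and 10.31 in CC. The groups did not overlap in any comparison, with RC lowest and CC highest. RC against CC gave -0.29 ± 0.05 (SE; 1.22-fold; limma adjusted p = 0.032). Neither DC minus CC (-0.14, adjusted p = 0.16) nor RC minus DC (-0.15, adjusted p = 0.25) passed in limma. The call ended without any of CC 1, CC 2, CC 3, CC 4, RC 1 or RC 2 (adjusted p of 0.075 to 0.12), with only RC and CC in the fit (0.058) and with quantile normalization (0.061), at values of -0.30 to -0.25. ATG2 proteins carry lipids into the growing membrane. Atg2a was lower on all 4 RC arrays (9.15 to 9.24) than on all 4 CC arrays (9.31 to 9.38), a difference of -0.16 ± 0.05 that did not pass (limma adjusted p = 0.29). Atg2b had 2 rows that differed alike between DC and CC, by 0.24 and 0.30, and neither passed (adjusted p = 0.13 and 0.088). The first of these rows passed with the array spread as a covariate (0.31, limma adjusted p = 0.041). Groups that do not overlap were found for 5 members between DC and CC, 5 between RC and DC and 4 between RC and CC, or 13.5%, 13.5% and 10.8% of the 37, where 15.3%, 6.29% and 7.94% of all rows did the same. Between DC and CC, 3 lay higher (Atg10, Map1lc3a and Calcoco1) and 2 lower in DC (Wipi1 and Atg9a), against 7.29% and 7.96% of all rows. Between RC and DC, Wipi1 lay higher and 4 lower in RC (Ulk1, Pik3c3, Atg9a and Map1lc3a), against 3.06% and 3.23%. Between RC and CC, Gabarap lay higher and 3 lower in RC (Ulk1, Atg2a and Atg9a), against 2.49% and 5.45%.

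**Figure D3:**
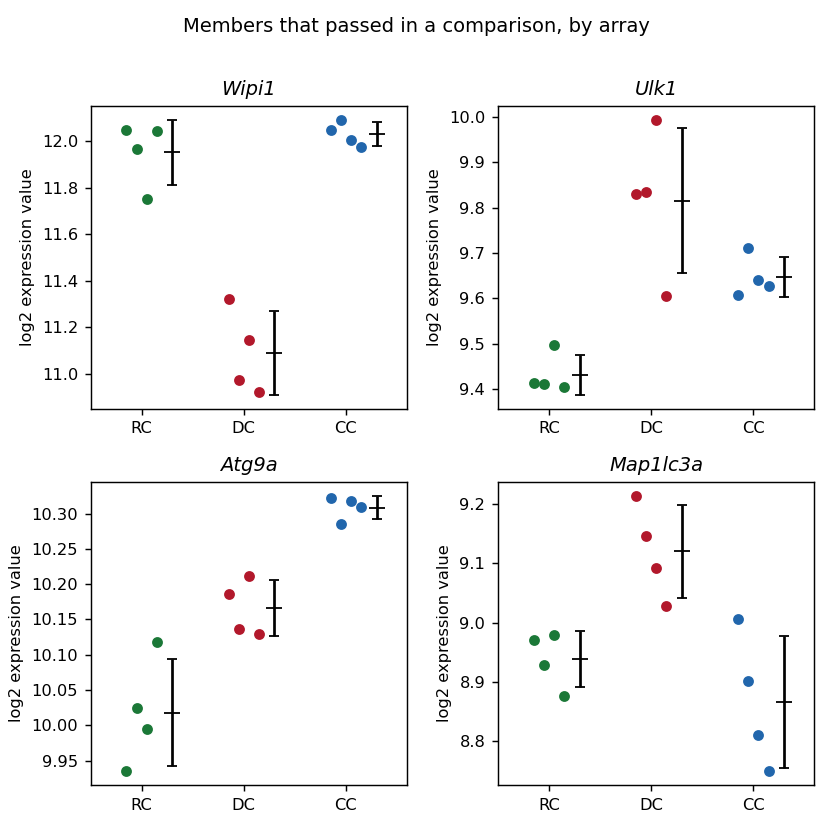
Log2 expression value of Wipi1, Ulk1, Atg9a and Map1lc3a on each array (points, 4 per condition, RC, DC and CC from left to right) with the mean and SD beside them (black); each panel has its own axis, which does not start at 0. Wipi1 shows the DC arrays at 10.92 to 11.32, apart from RC and CC, and Atg9a shows 3 groups that do not overlap.

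In the start complex Ulk1 was the member that passed. ULK1 is the kinase that starts autophagosome formation when the growth kinase mTORC1 is inactive. Ulk1 (row 10532472) read 9.41, 9.41, 9.50 and 9.40 in RC, 9.83, 9.83, 9.99 and 9.60 in DC and 9.61, 9.71, 9.64 and 9.63 in CC. RC lay below DC and CC on every array, and DC 4 lay just below the CC arrays while the other DC arrays lay above them. In RC it fell by 0.38 relative to DC (SE 0.07; 95% interval of -0.55 to -0.22; limma adjusted p = 0.015). RC minus CC was -0.21 ± 0.07 (adjusted p = 0.32) and DC minus CC 0.17 ± 0.07 (adjusted p = 0.23), and neither passed. The RC against DC call ended without DC 2, RC 1, RC 2 or RC 4 (adjusted p of 0.053 to 0.057) and with only RC and DC in the fit (0.084), and DC against CC passed without DC 4 (0.24, adjusted p = 0.048). Its paralogue Ulk2 averaged 9.22 ± 0.09 in RC, 9.26 ± 0.14 in DC and 9.23 ± 0.08 in CC (SD, n = 4 each). The complex's other subunits did not pass either. Atg13, which binds ULK1, averaged 10.61, 10.59 and 10.68 in RC, DC and CC, its partner Atg101 8.77, 8.91 and 8.82, and the scaffold Rb1cc1 8.82, 8.79 and 8.99. Rb1cc1 was among the least precise members, since RC 3 (8.24) and DC 4 (8.43) read below all other arrays (8.85 to 9.16).

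The transcription start regions of the members that passed are shown for the 3 genes with an entry in the RefSeq promoter table (build GRCm38.p6), so that they can be read beside the changes. Map1lc3a had no entry. Each line gives the 250 bases before the annotated start, 5′ to 3′ on the gene's minus strand, with capitals for the letters ACGTG or GCGTG, on either strand, which stand at the core of the hypoxia response element.
Wipi1, chr11:109611390-109611639: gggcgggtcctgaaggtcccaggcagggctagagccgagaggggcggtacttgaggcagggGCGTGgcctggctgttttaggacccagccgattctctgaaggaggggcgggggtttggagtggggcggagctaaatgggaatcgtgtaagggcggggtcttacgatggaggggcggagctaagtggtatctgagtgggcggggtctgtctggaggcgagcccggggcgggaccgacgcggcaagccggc
Ulk1, chr5:110810082-110810331: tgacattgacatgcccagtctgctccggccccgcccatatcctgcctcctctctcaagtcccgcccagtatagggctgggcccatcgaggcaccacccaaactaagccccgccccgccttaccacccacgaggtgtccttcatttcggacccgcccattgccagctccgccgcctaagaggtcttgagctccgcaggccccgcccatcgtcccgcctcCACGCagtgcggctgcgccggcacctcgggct
Atg9a, chr1:75192011-75192260: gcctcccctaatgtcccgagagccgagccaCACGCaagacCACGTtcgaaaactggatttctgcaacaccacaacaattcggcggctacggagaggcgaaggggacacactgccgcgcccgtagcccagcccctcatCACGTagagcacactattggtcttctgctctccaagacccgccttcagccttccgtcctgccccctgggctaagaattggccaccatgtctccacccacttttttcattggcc
Wipi1 held 1 such match, beginning 189 bases before the start, Ulk1 held 1 at 32 bases, and Atg9a held 3, at 220, 210 and 113 bases. None of these windows held the E-box CACGTG, the longer TCACGTG at the core of the CLEAR element read by the lysosomal regulator TFEB, or the FOXO element TGTTTAC. Promoters were found for 31 members, 35 windows in all. The E-box was in 8.57% of these windows (of Atg3, Atg5 and Atg7), against 6.02% of the 32851 windows of the table, and TCACGTG in 5.71% (Atg3 and Atg7) against 3.13%. ACGTG was in 37.1% against 16.6%, GCGTG in 57.1% against 28.2%, and TGTTTAC in none against 3.17%. TCACGTG holds CACGTG and CACGTG holds ACGTG, so these counts overlap, and base composition was not matched between the sets. Atg3, Atg5 and Atg7, with the E-box, did not pass in any comparison.

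The lipid kinase complex that makes the phosphatidylinositol mark had no member that passed. Its catalytic subunit gene Pik3c3 averaged 9.11 ± 0.04 in RC, 9.22 ± 0.07 in DC and 9.17 ± 0.07 in CC (SD, n = 4 each), and Becn1, the core scaffold, 10.21 ± 0.03, 10.17 ± 0.07 and 10.26 ± 0.10. Pik3r4, the regulatory subunit gene, had the smallest p of the 6. It read 9.71, 9.84, 9.66 and 9.91 in RC, 10.03, 9.92, 9.91 and 9.83 in DC and 9.86, 10.04, 9.92 and 9.95 in CC, and the groups overlapped. RC minus CC was -0.16 ± 0.07 (SE; limma adjusted p = 0.51). The subunits that direct the complex to autophagosomes or to endosomes, Atg14 and Uvrag, gave -0.13 and 0.26 for RC minus DC, and the Beclin 1 regulator Ambra1 gave 0.12 for DC minus CC. None of these passed. The 95% interval for Uvrag, which reached 0.52, was the widest of the complex in that comparison.

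None of the 10 conjugation genes passed in any comparison. ATG7 activates both ubiquitin-like proteins of the system, ATG3 then hands on the ATG8 proteins and ATG10 hands on ATG12. Atg10 had the smallest p of the group. It read 9.132, 9.150, 8.977 and 9.151 in RC, 9.418, 9.163, 9.093 and 9.017 in DC and 9.003, 8.966, 8.925 and 8.757 in CC, so DC lay above CC on every array, while DC 4 and CC 1 nearly met. The difference of 0.26 ± 0.09 did not pass (limma adjusted p = 0.12), and it was 0.37 with the array spread as a covariate (adjusted p = 0.011). Atg7 averaged 8.95 ± 0.04 in RC, 8.95 ± 0.08 in DC and 8.88 ± 0.05 in CC, among the steadiest members. Atg3 was the opposite, with SDs of 0.35, 0.30 and 0.20 in RC, DC and CC and an interval of -0.66 to 0.12 for DC minus CC. ATG12, ATG5 and ATG16L1 form the complex that places ATG8 proteins on the membrane. For DC minus CC they gave -0.04 (Atg12), -0.22 (Atg5) and 0.01 (Atg16l1). The ATG4 proteases trim ATG8 proteins before conjugation and remove them afterwards. The 4 protease genes gave differences between -0.13 and 0.11 over all 3 comparisons, with Atg4d at -0.13 for RC minus CC and Atg4a at 0.11 for DC minus CC (0.09 in its second row).

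All 5 measured ATG8 genes had values above 0 for DC minus CC, with a median of 0.15, and for RC minus CC, with a median of 0.22, but only Map1lc3a passed, and only between DC and CC. All 5 genes read 0.17 to 0.37 higher on CC 1 and CC 2 than on CC 3 and CC 4, so some signs depended on the CC pair used. Against CC 1 and CC 2 alone, 3 of 5 were above 0 for DC minus CC, with Gabarapl1 at -0.18 and Gabarapl2 at -0.13, and 3 of 5 for RC minus CC, with Map1lc3a at -0.01 and Gabarapl2 at -0.08. Against CC 3 and CC 4 alone all 5 were above 0 in both. With array medians made equal, 3 of 5 stayed above 0 for DC minus CC and 5 of 5 for RC minus CC. With quantile normalization all 5 were above 0 in both (medians of 0.18 and 0.23). The same held with the array spread as a covariate (0.24 and 0.29). Map1lc3a encodes a form of LC3, the ATG8 protein used as a marker of autophagosomes. It (row 10477637) read 8.97, 8.93, 8.98 and 8.88 in RC, 9.21, 9.15, 9.09 and 9.03 in DC and 9.01, 8.90, 8.81 and 8.75 in CC. Every DC array lay above every RC and CC array, but DC 4 and CC 1 nearly met. The difference between DC and CC was 0.25 ± 0.07 (SE; 1.19-fold; limma adjusted p = 0.042). RC minus DC was -0.18 ± 0.07 and did not pass (adjusted p = 0.26). The call between DC and CC ended without any of CC 2, CC 3, CC 4, DC 1, DC 2, DC 3, RC 1, RC 2 or RC 4 (adjusted p of 0.056 to 0.12), with equal array medians (0.18) and with only DC and CC in the fit (0.069). Against CC 3 and CC 4 alone the difference was 0.34, and against CC 1 and CC 2 alone it was 0.17. Map1lc3b, the more widely studied LC3 gene, has 2 rows that gave 0.20 and 0.18 for DC minus CC and 0.23 and 0.21 for RC minus CC, none past the threshold. Gabarap read 12.62 to 12.85 in RC, 12.52 to 12.76 in DC and 12.38 to 12.59 in CC, and RC lay above CC on every array. That difference was 0.22 ± 0.08 (adjusted p = 0.29), and it passed with the array spread as a covariate (0.29, adjusted p = 0.034). With that covariate Gabarap also passed for DC minus CC (0.24, limma adjusted p = 0.036). Gabarapl1 and Gabarapl2 gave 0.00 and 0.02 for DC minus CC, and a dimmer second row of Gabarapl2 gave 0.11. For RC minus CC the 2 rows of Gabarapl2 gave 0.07 and 0.23, and neither passed. The signs against each CC pair given above are those of its brighter row alone.

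Among the cargo receptors no gene passed. CALCOCO1 is a receptor for portions of the endoplasmic reticulum and Golgi, and its gene came closest. Calcoco1 read 9.23, 9.18, 9.46 and 9.16 in RC, 9.44, 9.59, 9.62 and 9.32 in DC and 9.17, 9.20, 9.24 and 9.16 in CC. DC lay above CC on every array, and RC 3 lay within the DC range while the other RC arrays lay close to those of CC. The difference between DC and CC was 0.30 ± 0.08 (SE; 1.23-fold; limma adjusted p = 0.051), and it passed without DC 4 or without RC 3, with an adjusted p of 0.015 at the lowest over all arrays left out in turn. RC minus DC was -0.23 (adjusted p = 0.23) and passed without RC 3 (adjusted p = 0.028). Sqstm1, the receptor for ubiquitinated cargo that is itself degraded by autophagy, averaged 12.42 ± 0.06 in RC, 12.28 ± 0.16 in DC and 12.29 ± 0.14 in CC (SD, n = 4 each). Its relative Nbr1 averaged 10.60, 10.67 and 10.71 in RC, DC and CC, and Tax1bp1 averaged 9.46, 9.35 and 9.46. The Tax1bp1 values on CC 1 and CC 2 (9.66 and 9.69) exceeded those on CC 3 and CC 4 (9.27 and 9.23) by more than any difference between conditions.

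The mitophagy members Pink1 and Fundc1 did not pass. PINK1 builds up on damaged mitochondria and recruits the ligase Parkin. Pink1 read 8.91, 8.79, 8.93 and 8.94 in RC, 8.93, 8.96, 9.21 and 8.93 in DC and 9.01, 9.04, 8.83 and 8.93 in CC, with DC 3 above all others. The 95% interval of the difference was -0.11 to 0.22 for DC minus CC, -0.28 to 0.05 for RC minus DC and -0.23 to 0.10 for RC minus CC. FUNDC1 is an outer membrane receptor that acts at low oxygen after loss of phosphate groups. Fundc1 averaged 9.85 ± 0.18 in RC, 10.00 ± 0.24 in DC and 9.90 ± 0.21 in CC (SD, n = 4 each), and DC minus CC had an interval of -0.19 to 0.40. With the array spread as a covariate that interval was 0.06 to 0.53, and Fundc1 did not pass (limma adjusted p = 0.16).

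Around this core, 101 other genes of the pathway were read from 6 lists. The lists were chosen with earlier results of these data known, so the shares that passed describe them and are not a test. Between DC and CC 7 were higher and 8 lower in DC (14.9%, against 6.64% of all rows), between RC and DC 2 were higher and 4 lower in RC (5.94% against 2.63%), and between RC and CC 3 were lower in RC (2.97% against 0.796%). Their medians were -0.01, 0.01 and -0.03. All were read from rows with 1 symbol. Adjusted over such rows alone, 9.98%, 4.19% and 1.63% of them passed in the same order. Of the pathway genes, 17 and 8 then passed in DC against CC and RC against DC. Rows above the median level, fitted alone, passed in 14.6%, 5.94% and 2.47%, with 22 and 8 pathway genes in those 2 comparisons. The count between DC and CC was 9 without CC 4 and 24 without RC 3. Between RC and DC it was 9 without RC 3. Between RC and CC it was 1 without CC 1, CC 2, CC 3, RC 1 or RC 2 and 5 without DC 4. All rows moved the same way. Between DC and CC, 5.03% of them passed without CC 4, and 3718 rows passed without RC 3 (2360 as reported). Between RC and DC, 8.13% passed without RC 3. Between RC and CC, 0.16% to 0.295% passed without CC 1, CC 2, CC 3, RC 1 or RC 2 and 0.99% without DC 4.

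Of 18 other mitophagy genes, the outer membrane receptors Bnip3 and Bnip3l were higher in DC than in CC and lower in RC than in DC, and the rest did not pass in either comparison. That is 11.1% of the list in each comparison, against 6.64% and 2.63% of all rows. Bnip3l read 11.63, 11.27, 11.31 and 11.46 in RC, 12.05, 12.37, 12.44 and 11.89 in DC and 11.38, 11.31, 11.24 and 11.17 in CC. All DC arrays lay above the others, and RC overlapped CC. DC minus CC was 0.91 ± 0.12 (SE; 1.88-fold; limma adjusted p = 0.00053) and RC minus DC -0.77 ± 0.12 (1.71-fold; adjusted p = 0.0036). Bnip3, at 10.36 to 10.67 in RC, 11.45 to 12.50 in DC and 9.47 to 9.75 in CC, was 2.46 ± 0.20 higher in DC than in CC and also kept RC above CC on every array, a difference of 0.94 ± 0.20 that did not pass (adjusted p = 0.053) but did without DC 3 or without DC 4 (adjusted p of 0.016 at the lowest). Second rows of Bnip3 and Bnip3l gave 2.18 and 0.93 for DC minus CC, and that of Bnip3 gave a smaller 0.67 for RC minus CC (adjusted p = 0.246). The fission and fusion genes Dnm1l, Mfn1 and Mfn2 were at -0.01, -0.02 and 0.18 for DC minus CC and did not pass.

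In the list of mTORC1 and its inputs, 3 of 25 were higher and 1 lower in DC than in CC (16%, against 6.64% of all rows). Between RC and DC, 1 was lower in RC (4% against 2.63%). DDIT4 restrains mTORC1 at low oxygen. Ddit4 read 9.35, 9.22, 9.47 and 9.37 in RC, 10.35, 10.39, 10.62 and 9.77 in DC and 9.37, 9.42, 9.27 and 9.31 in CC. All DC arrays lay above the others, with DC 4 nearest, and RC overlapped CC. DC minus CC was 0.94 ± 0.14 (1.92-fold; limma adjusted p = 0.0013) and RC minus DC -0.93 ± 0.14 (adjusted p = 0.0031). Flcn, a gene of the lysosomal amino acid sensing machinery, read 9.70 to 9.81 in RC, 9.74 to 9.96 in DC and 9.38 to 9.58 in CC. It was 0.39 ± 0.07 higher in DC than in CC (adjusted p = 0.0032), while RC minus CC was 0.31 ± 0.07 (adjusted p = 0.060). Sesn3, a stress-induced restraint on mTORC1, was 0.43 higher in DC than in CC, and Tsc2, which encodes part of the complex that inhibits mTORC1, was 0.26 lower (-0.26, adjusted p = 0.034). These 2 calls ended without most single arrays: Tsc2 without any of CC 1 to CC 4, RC 1 or DC 2 to DC 4 (adjusted p up to 0.12) and Sesn3 without any but CC 2, DC 1, RC 3 or RC 4 (up to 0.14).

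The list of other membrane and endoplasmic reticulum genes had 4 of 15 lower in DC than in CC, with none higher. That is 26.7%, against 6.64% of all rows, or 4.32% lower. Between RC and CC, 2 were lower in RC (13.3%, against 0.796% of all rows, or 0.675% lower). EI24 and VMP1 are endoplasmic reticulum proteins needed to form autophagosomes. Ei24 read 9.93, 9.70, 9.44 and 9.82 in RC, 9.80, 9.77, 10.05 and 9.84 in DC and 10.58, 10.37, 10.42 and 10.44 in CC. All RC and DC arrays lay below all CC arrays. DC minus CC was -0.59 ± 0.10 (limma adjusted p = 0.0035), RC minus CC was -0.73 ± 0.10 (1.66-fold; adjusted p = 0.0078), and RC minus DC (-0.14) did not pass. Vmp1 was 10.04, 10.11, 9.92 and 10.26 in RC, 9.79, 9.88, 10.10 and 9.72 in DC and 10.35, 10.33, 10.26 and 10.53 in CC, with a difference of -0.50 ± 0.10 between DC and CC (adjusted p = 0.0071). Ccpg1 and Sec62, whose proteins are receptors for autophagy of the endoplasmic reticulum, gave -0.43 and -0.35 for DC minus CC (adjusted p = 0.021 and 0.041), and Ccpg1 gave -0.49 for RC minus CC (0.047). For DC minus CC, Ccpg1 lost its call without CC 3, CC 4, DC 2 or DC 4 (up to 0.074) and Sec62 without any but DC 3, RC 3 or RC 4 (up to 0.14). For RC minus CC, Ccpg1 lost its call without any CC array, any RC array or DC 2 (up to 0.16).

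The list of transcriptional and other regulators had 1 of 16 higher and 2 lower in DC than in CC (18.8%, against 6.64% of all rows). The 2 lower genes are not transcription factors of the pathway. TRP53INP2 is a scaffold that binds ATG8 proteins, and BCL2 binds and holds back Beclin 1. Trp53inp2 read 12.26, 12.16, 12.39 and 12.13 in RC, 11.70, 11.51, 11.68 and 11.75 in DC and 12.30, 12.31, 12.32 and 12.27 in CC. Bcl2 read 9.22, 9.21, 9.34 and 9.29 in RC, 8.90, 8.73, 8.82 and 8.77 in DC and 9.13, 9.17, 9.14 and 9.08 in CC. In both genes every DC array lay below every RC and CC array. Trp53inp2 gave -0.64 ± 0.07 for DC minus CC (1.56-fold; limma adjusted p = 0.00015) and 0.58 ± 0.07 for RC minus DC (adjusted p = 0.00070). Bcl2 gave -0.33 ± 0.06 (adjusted p = 0.0036) and 0.46 ± 0.06 (adjusted p = 0.00073), and neither gene passed between RC and CC. Ddit3, a stress transcription factor, was 0.41 higher in DC than in CC (adjusted p = 0.045), a call that ended without any single array but DC 4 or RC 3 (up to 0.14). Trp53inp1, induced by p53, was lower in RC (9.34 to 9.62) than in CC (10.17 to 10.39), by -0.76 ± 0.12 (adjusted p = 0.018), and not without CC 1, CC 2, CC 3, RC 1 or RC 2 (up to 0.0655). The genes of TFEB and TFE3, which drive lysosomal and autophagy genes mainly by moving to the nucleus, gave 0.00 and 0.03 for DC minus CC and did not pass in any comparison.

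**Figure D4:**
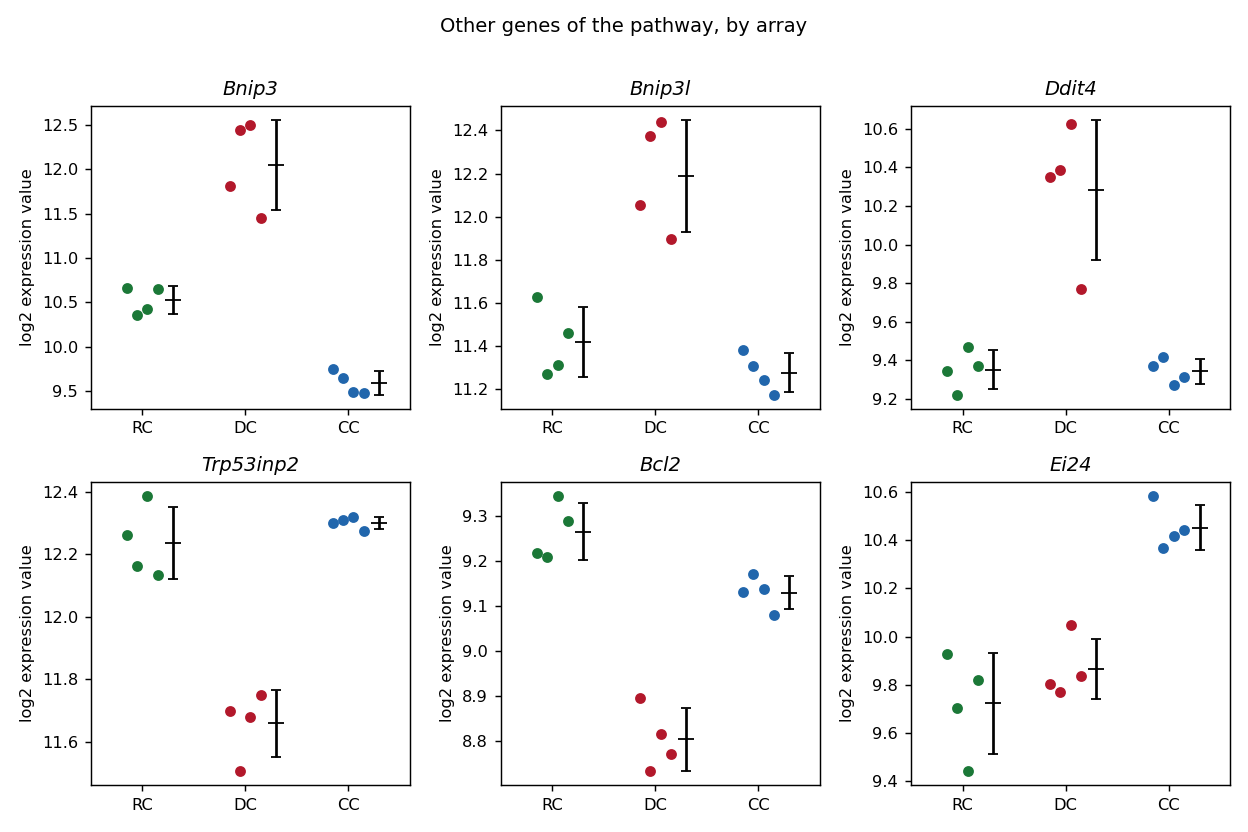
Log2 expression value on each array (points, 4 per condition, RC, DC and CC from left to right) with mean and SD (black) for Bnip3, Bnip3l, Ddit4, Trp53inp2, Bcl2 and Ei24; each panel has its own axis, which does not start at 0. The DC arrays stand apart from both other conditions in the first 5 genes, while for Ei24 RC and DC lie below all CC arrays.

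Of 16 genes of autophagosome fusion, 1 passed between DC and CC (6.25%, against 6.64% of all rows) and 1 between RC and DC (6.25% against 2.63%). Vps39, a subunit of the tethering complex at the lysosome, was 0.31 higher in DC than in CC (limma adjusted p = 0.041), and Tecpr1, another tether, was lower in RC than in DC (-0.24, adjusted p = 0.038). Vps39 lost its call without any array except CC 2, DC 4 or RC 3 (adjusted p up to 0.12), and Tecpr1 without any except CC 2 or RC 3 (up to 0.13). Among 11 genes of AMPK and its activator LKB1, 1 passed, between DC and CC (9.09% against 6.64%). Prkaa2, a catalytic subunit gene, was lower in DC (8.69 to 8.93) than in CC (9.04 to 9.27), by -0.36 ± 0.07 (adjusted p = 0.012). The RC arrays (8.98 to 9.17) lay above DC, a difference of 0.27 that did not pass (adjusted p = 0.090).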

How the data were processed

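The authors deposited 1 log2 expression value per probe set and array for 12 arrays of total RNA, labelled with biotin after cDNA synthesis, per the labels' protocols. The log2 scale was read from the range of the values, 3.69 to 14.5. No source used here gives the summarisation software, any normalization or the genome build, and detection calls were not used here, so the number of arrays limits the precision. Rows were named through the platform annotation. Condition and replicate number come from the sample titles. With limma 3.58.1 in R 4.3.3 (lmFit, contrasts.fit, eBayes), each condition got its own mean in a model of all 12 arrays (9 residual degrees of freedom). Two-sided p-values were adjusted over the 35556 rows of each comparison (Benjamini-Hochberg, threshold 0.05). Errors of differences are moderated SEs. The fit was tested on simulated data with independent noise for each row and array. That simulation held neither the shared array spread nor the CC pairs seen here, so it does not cover their effect on the p-values. The members and lists were chosen with earlier results of these data known. Given with every array's value were members that passed and the member of smallest p in a role group where none did. Of each other list, up to 4 genes that passed were given, with array values, ranges or the difference alone. Others were named after their values were seen. Same-numbered arrays did not deviate together throughout (correlations of -0.36 to 0.47, above 0.1 in 5 of 12 pairs), so numbers were not used as pairs. Those numbered 1 did, at 0.18 (DC with CC), 0.32 (RC with DC) and 0.47 (RC with CC). Alternatives covered the scaling, weighting and filtering of arrays and rows and arrays left out. Promoter windows come from RefSeq, GRCm38.p6.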

Additional observations from a re-analysis of the deposited data

Results flagged for a closer look

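In 171 groups of 4 arrays, from 57 genes named above or in the member list, 10 held an array whose gap to its nearest neighbour exceeded Dixon's 95% critical value as a share of the group's range; chance alone gives about 1 in 20. In RC these were RC 3 for Ulk1 (9.50, others 9.40 to 9.41), Atg10 (8.98, others 9.13 to 9.15), Tecpr1 (9.20, others 9.08 to 9.10) and Trp53inp1 (9.34, others 9.61 to 9.62). In DC they were DC 4 for Rb1cc1 (8.43, others 8.89 to 8.92) and Sqstm1 (12.04, others 12.33 to 12.37), DC 1 for Atg4a (8.47, others 8.21 to 8.25) and DC 3 for Pink1 (9.21, others 8.93 to 8.96). In CC they were CC 2 for Atg5 (8.89, others 8.57 to 8.62) and for Tsc2 (10.90, others 10.78).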

How the results depend on the processing

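Wipi1 kept both its calls in all 24 alternatives tried; Map1lc3a lost its call in 13 of 24, Ulk1 (RC against DC) in 5 and Atg9a in 11. Members called between DC and CC (2 as reported) numbered 1 with array medians made equal or, chosen after seeing the data, without CC 3 and CC 4, 4 with quantile normalization or without DC 2, DC 4 and RC 3, and 5 with the array interquartile range as a covariate or array weights. Between RC and DC (2) they numbered 6 with array weights and 1 with only RC and DC fitted. Between RC and CC (1) they numbered 0 with only those groups, with quantile normalization, without CC 1 and CC 2 or without CC 3 and CC 4, 2 with the covariate and 7 with weights. In these limma fits 6 members (16.2%, against 9.06% of all rows) had an unadjusted p under 0.05 between RC and CC as reported. By the F test (3) they numbered 7 with quantile normalization, 6 with the covariate, 13 with weights and 1 without either CC pair. With weights 13.6%, 18% and 7.93% of all rows passed in DC against CC, RC against DC and RC against CC. As reported these shares were 6.64%, 2.63% and 0.796%. They were 6.91%, 4.89% and 1.79% with the covariate and 7.25%, 3.47% and 0.877% with quantile normalization. For DC against CC the share was 5.78% without DC 4 and 2.79% without CC 1 and CC 2. For RC against DC it was 8.13% without RC 3. For RC against CC it was 0.0647% without CC 1 and CC 2 and 0.0506% without CC 3 and CC 4. With the covariate 28 of 37 members were above 0 for DC minus CC, against 20 as reported and 13 with the arrays centred. The other pathway genes called numbered 36 with weights and 8 without CC 1 and CC 2 for DC against CC (15 as reported). In RC against DC (6) they numbered 11 with quantile normalization, 12 with the covariate and 19 with weights. Between RC and CC (3) they numbered 5 with only those groups, with rows above the median level or adjusted over rows with 1 symbol, 6 with quantile normalization, 9 with the covariate, 21 with weights, 0 without either CC pair and 8 without DC 2, DC 4 and RC 3. With arrays left out in turn the member counts were 1 to 5 for DC against CC (5 without DC 4, adding Atg2b, Calcoco1 and Ulk1, all higher in DC), 1 to 3 for RC against DC, 0 to 1 for RC against CC and 1 to 4 by F, and the counts of other pathway genes 9 to 24, 5 to 9 and 1 to 5. Fundc1 turned to -0.034 for DC minus CC without CC 3 and CC 4, and Pink1 to 0.00997 for RC minus CC without CC 1 and CC 2, neither called. With replicate numbers as a block, the other pathway genes called were 9 for DC against CC and 1 for RC against CC, and the members called 0 for RC against CC, where Atg9a had an adjusted p of 0.122 (limma); 2 of 12 arrays correlated best with their own number. The cause of these shifts was not tested beyond the construction of each alternative.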
